A study of Mus musculus with 8 samples.

Results

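A set of 10 genes of TGF-beta and BMP signaling was followed through the skin transcriptomes of JunB cKO and wild type (WT) mice. They comprise the ligands Tgfb1, Tgfb2, Tgfb3, Inhba, Bmp2, Bmp4 and Bmp6, the secreted antagonists Fst and Nog, and the target gene Id1. The 10 genes were taken by name from 50981 gene symbols in the deposited tables, and all 10 had an entry in all 3 tables. Where a symbol had more than 1 entry, the entry with the largest summed expression was used.

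JunB is a subunit of the AP-1 transcription factor, and in JunB cKO mice it is deleted by a Cre recombinase under the Krt14 promoter, so that the deletion is restricted to the epidermis and its appendages and dermal cells keep the gene. Mice were C57BL/6 adults, with the genotype JunB +/+ (WT) or JunB -/- (JunB cKO). The groups were unperturbed and labelled as keratinocytes, hair plucked with biopsies taken 4 days later (labelled both as skin biopsy and as keratinocyte), and wounded with skin taken 30 days later. The authors pooled the RNA of 3 samples of a group for each library, which gave 1 library per genotype for unperturbed and plucked samples and 2 for wounds. The tables give 1 FPKM value (fragments per kilobase of transcript, scaled to the sequencing depth) per genotype and gene, also for wounds, so that there is no spread between replicates and no test of any difference given here.

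In skin, ligands of the TGF-beta family are secreted by both epidermal and dermal cells and bind pairs of type I and type II receptors, which phosphorylate Smad proteins. TGF-betas and activins act through one set of Smads and restrain keratinocyte division or promote repair, whereas BMPs act through another set, induce Id genes and keep hair follicle stem cells at rest. Noggin binds BMPs and follistatin binds activins, and a drop of BMP signaling relative to its inhibitors is a known step in the entry of hair follicles into growth.

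Junb itself had lower values in JunB cKO throughout, with 268 FPKM in WT and 31.4 in JunB cKO in unperturbed samples, 40.8 and 11.7 after plucking, and 33.4 and 15.4 in wounds. In unperturbed samples the 5 keratinocyte markers summed to 8210.5 FPKM in WT and 10145 in JunB cKO, while 5 fibroblast markers summed to 10.8 and 7.94, as the label keratinocyte would have it. Plucked samples held dermal RNA despite the same tissue label: fibroblast markers summed to 4355 FPKM in WT and 1381 in JunB cKO, with 5 of 5 lower in JunB cKO. In wounds they summed to 9100 and 11962. In such bulk samples, fewer cells of a type and less RNA per cell cannot be told apart.

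Differences are given as log2((JunB cKO + 0.1)/(WT + 0.1)) of the FPKM values, which understates the difference of low genes. A gene was counted as higher or lower at a 2-fold difference on this scale, if its mean FPKM over both genotypes was at least 1. In unperturbed samples 9 of the 10 genes reached this minimum and 0 differed 2-fold, where 10.9% of all loci above the minimum did (8.41% higher and 2.49% lower). After plucking 8 reached it, of which 2 were higher and 2 lower in JunB cKO. That is 4 of 8 where 36.2% of all loci differed (19.1% higher and 17.1% lower), so the count of the members was near that of the table. In wounds 9 reached it, and 1 was higher and 0 lower, where 13.3% of all loci differed (7.31% higher and 5.99% lower). The median log2 ratio of the members above the minimum was 0.00 in unperturbed samples, -0.24 after plucking and -0.10 in wounds, where the median of all loci was -0.14, 0.02 and 0.01, respectively.

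**Figure D1:**
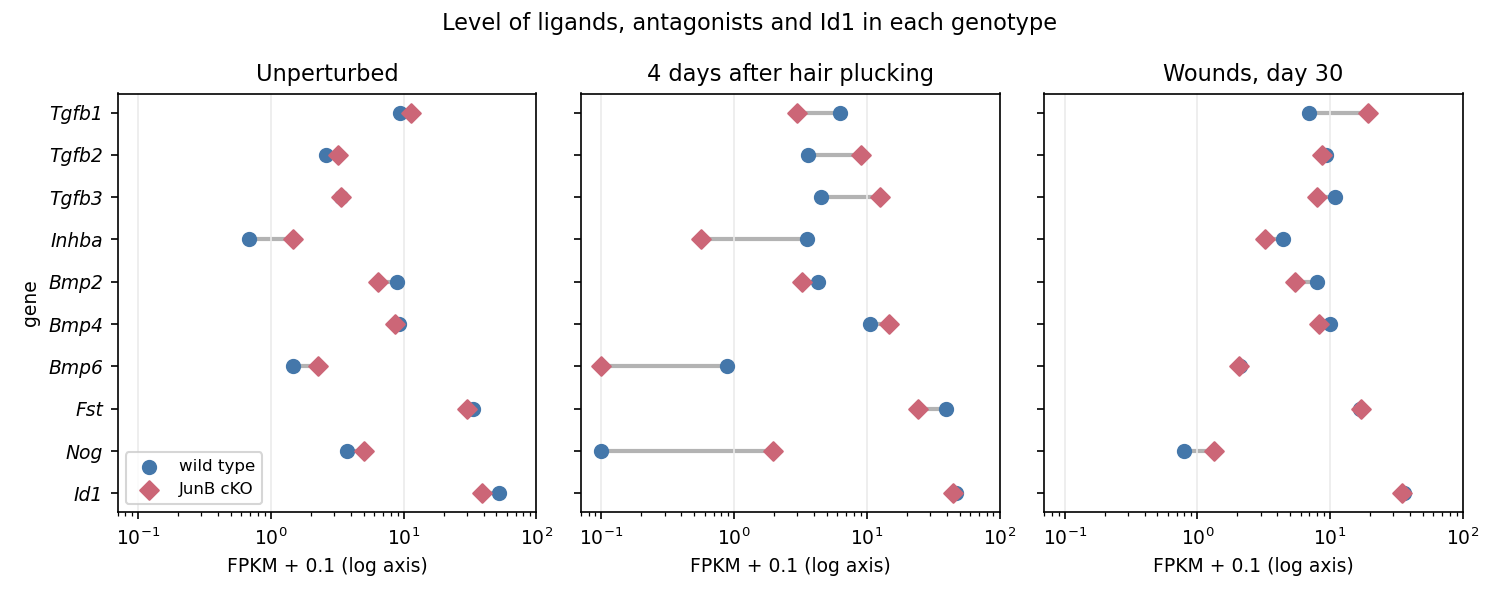
FPKM of each gene (0.1 added, log axis) in WT (circles) and JunB cKO (diamonds), with 1 value per genotype and a line joining the genotypes. Id1 had the highest FPKM in every column, between 34.6 and 52.1. The long lines after plucking belong to Inhba, Bmp6 (listed at 0 in JunB cKO) and Nog (listed at 0 in WT).

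The promoters of Tgfb1, Tgfb2 and Inhba are shown because these are the genes past the 2-fold limit for which a sequence was at hand, and because JunB binds DNA as part of AP-1. The table of RefSeq promoters (GRCm38.p6) held 5 of the 10 genes, namely Tgfb1, Tgfb2, Inhba, Bmp4 and Bmp6. Each sequence is the 250 bases before the gene start, 5′ to 3′ on the strand of the gene, with matches to the searched motifs in capitals. Tgfb1 lies at chr7:25686752-25687001 (plus strand), Tgfb2 at chr1:186705990-186706239 (minus strand) and Inhba at chr13:16011601-16011850 (plus strand).
Tgfb1: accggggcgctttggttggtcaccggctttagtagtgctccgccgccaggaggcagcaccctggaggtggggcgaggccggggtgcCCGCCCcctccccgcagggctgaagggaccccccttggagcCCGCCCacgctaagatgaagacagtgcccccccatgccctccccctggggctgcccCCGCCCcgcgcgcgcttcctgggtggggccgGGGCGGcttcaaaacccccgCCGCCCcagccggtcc
Tgfb2: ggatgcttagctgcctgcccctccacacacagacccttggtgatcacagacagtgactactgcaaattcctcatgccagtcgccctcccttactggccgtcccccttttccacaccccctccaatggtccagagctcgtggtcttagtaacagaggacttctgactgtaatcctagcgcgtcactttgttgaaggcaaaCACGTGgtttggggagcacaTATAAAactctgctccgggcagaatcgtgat
Inhba: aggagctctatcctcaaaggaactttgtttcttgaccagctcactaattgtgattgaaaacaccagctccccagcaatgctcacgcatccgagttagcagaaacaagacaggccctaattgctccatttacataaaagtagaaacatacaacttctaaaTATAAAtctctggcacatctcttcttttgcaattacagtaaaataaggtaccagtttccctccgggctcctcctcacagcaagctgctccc

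The motifs searched on both strands were AP-1 (TGANTCA), CRE (TGACGTCA), a palindromic Smad element (GTCTAGAC), a GC-rich Smad element (GGCGCC), an E-box (CACGTG), the TATA box (TATAAA) and the GC box (GGGCGG). No AP-1 letters were found in these windows for any of the 5 genes, and 6.75% of 32817 promoters held them. No CRE or Smad letters were found either. The Tgfb1 window held 5 GC boxes, which 32.7% of promoters held at least once, and its GC content was 75.2%, against a median of 52.4% for all promoters. The Tgfb2 window held an E-box (6.02% of promoters) and a TATA box (12.4%), and the Inhba window, with a GC content of 43.2%, a TATA box only. The Bmp4 and Bmp6 windows each held an E-box and a GC box. These matches describe the letters and are not evidence of binding.

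Among genes above the minimum level, Tgfb1 was the only one of the 10 counted at 2-fold in more than 1 table. Tgfb1 encodes the isoform that is the main TGF-beta of leukocytes and platelets and is stored in matrix as a latent complex. It lies on chromosome 7 of GRCm38 from 25687002 to 25705077 (ENSMUSG00000002603.15) with no overlapping annotated gene. In unperturbed samples it was at 9.25 FPKM in WT and 11.3 in JunB cKO (log2 ratio 0.29). After plucking it was at 6.13 in WT and 2.87 in JunB cKO, which is 2.14-fold lower (log2 ratio -1.07). In wounds it was at 6.88 in WT and 19.3 in JunB cKO, which is 2.81-fold higher (log2 ratio 1.48).

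Across the tables the WT values of Tgfb1 ran from 6.13 to 9.25 FPKM and the JunB cKO values from 2.87 to 19.3. These levels are only set side by side, since the tables were normalized separately and hold different material, from keratinocytes to wounded skin. Of the 5858 wound loci whose mean level was within 2-fold of that of Tgfb1, 1.84% had a log2 ratio at least as high. After plucking 20.7% of 5069 such loci had a ratio at least as low. The plucked call rested on a narrow margin, since with a pseudocount of 1 the log2 ratio was -0.88 and no longer reached 2-fold. Leukocyte markers moved with Tgfb1 in both tables: the 5 markers summed to 80.6 FPKM in WT and 24.3 in JunB cKO after plucking, with 4 of 5 lower, and to 77.3 and 93.2 in wounds, with 5 of 5 higher and none listed at 0 in either table. Markers of some other cell types lay on the same sides. Fibroblast markers were lower in 5 of 5 cases after plucking and higher in 4 of 5 in wounds. For endothelial markers this was 4 of 5 and 5 of 5, for skeletal muscle markers 4 of 4 and 4 of 4, and for adipocyte markers 3 of 5 and 4 of 5. Others did not: keratinocyte markers were higher in 4 of 5 cases after plucking and in 3 of 5 in wounds. Melanocyte markers were higher in 4 of 5 cases after plucking and lower in 5 of 5 in wounds. The part of any of these in the Tgfb1 difference was not tested.

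Tgfb2, which is needed for hair follicle formation, was at 2.50 FPKM in WT and 3.10 in JunB cKO in unperturbed samples. After plucking it was at 3.49 and 8.86, a 2.54-fold higher level in JunB cKO (log2 ratio 1.32), and in wounds at 9.21 and 8.61. It lies on chromosome 1 from 186622792 to 186705989, where it overlaps a snoRNA and an antisense RNA on the other strand. Of 5309 plucked loci of similar level, 16.0% had a ratio at least as high.

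Tgfb3, an isoform linked to wound repair with little scarring, had 3.29 FPKM in both genotypes of unperturbed samples. After plucking it was at 4.43 in WT and 12.5 in JunB cKO, 2.82 times higher (log2 ratio 1.47), and 11.4% of 5373 plucked loci of similar level had a ratio at least as high. In wounds it was at 10.8 and 7.88 (log2 ratio -0.44). Its gene, on chromosome 12 from 86056745 to 86079041, overlaps the end of Ttll5 on the other strand, and the plucked and wound tables place both in 1 merged locus. Ttll5 itself was at 24.4 FPKM in WT and 23.8 in JunB cKO after plucking, within 2-fold.

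As a pool, a sum formed after the values had been seen, the 3 TGF-beta ligands reached 14.0 FPKM in WT and 24.2 in JunB cKO after plucking, and 26.9 and 35.8 in wounds. In plucked WT skin Tgfb1 made up 43.7% of the pool and in plucked JunB cKO skin 11.9%, while Tgfb3 made up 31.5% and 51.5%. In wounds the shift ran the other way, with 25.6% Tgfb1 in WT and 54.0% in JunB cKO. In unperturbed samples Tgfb1 held 61.5% in WT and 63.9% in JunB cKO.

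**Figure D2:**
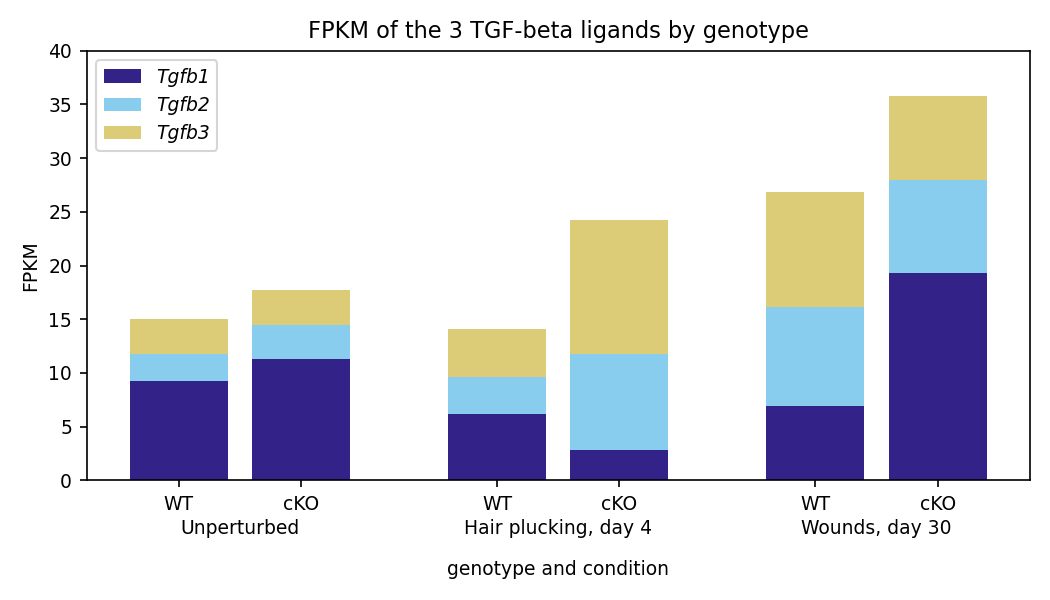
Stacked FPKM of Tgfb1, Tgfb2 and Tgfb3 in each genotype and condition, 1 value per bar segment, with each pair of bars from its own separately normalized table. The Tgfb1 segment is the smallest part of the pool in plucked JunB cKO skin (11.9%) and in WT wounds (25.6%). It is the largest part in all other bars, among them JunB cKO wounds (54.0%).

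Inhba encodes the beta A chain of activin A, a ligand that is induced in wounded skin. It had the lowest log2 ratio after plucking among the 8 members above the minimum, with 3.41 FPKM in WT and 0.468 in JunB cKO, 7.30-fold lower (log2 ratio -2.63). Depending on which annotated transcript the reads came from, this corresponds to about 73.9 to 344 reads in WT and 8.0 to 37.2 in JunB cKO. Of 4291 plucked loci of similar level, 15.0% had a ratio at least as low.

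In wounds Inhba was at 4.33 in WT and 3.12 in JunB cKO (log2 ratio -0.46). In unperturbed samples it was at 0.579 and 1.36, a mean just under the minimum of 1, and was therefore not counted. Low genes of the unperturbed table were shifted towards JunB cKO as a whole: 1361 odorant, vomeronasal and taste receptor genes had a median of 0 FPKM in WT and 0.548 in JunB cKO, and 62.8% of loci with a level similar to Inhba had a log2 ratio at least as high as its 1.10. The gene lies on chromosome 13 from 16011851 to 16031621 and overlaps 2 annotated genes on the other strand.

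**Figure D3:**
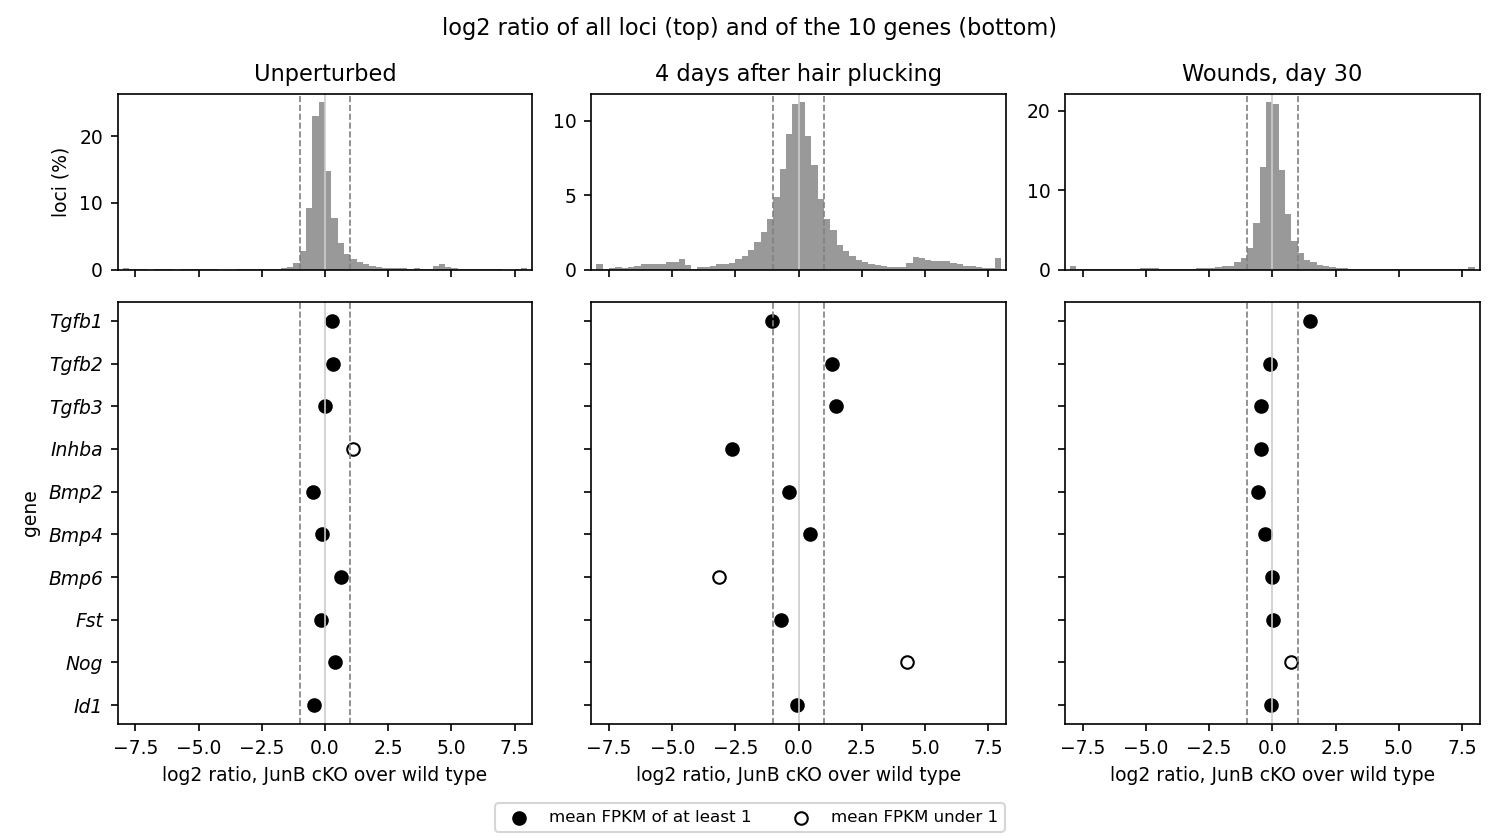
Top, log2 ratio (JunB cKO over WT) of all loci with a mean FPKM of at least 1, as percent of loci per bin of 0.25, with values beyond 8 in the outermost bins. Bottom, the 10 genes on the same axis, with open circles for a mean FPKM under 1 and dashed lines at 2-fold. The plucked distribution is the widest, and Tgfb1 in wounds (1.48) stands in the upper tail.

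No BMP ligand above the minimum level reached the 2-fold limit in any table. Bmp2, which is made in the epidermis and hair matrix and also in the dermis around resting follicles, had lower JunB cKO values in each table but never by 2-fold. It was at 8.87 FPKM in WT and 6.33 in JunB cKO in unperturbed samples (log2 ratio -0.48), 4.20 and 3.17 after plucking (-0.40 on the log2 scale), and 7.92 and 5.38 in wounds (-0.55). Bmp2 and Id1 were the only members with lower values in JunB cKO in all 3 tables. In wounds 11.5% of loci of similar level had a ratio at least as low, in unperturbed samples 17.7% and after plucking 36.5%.

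Bmp4, a ligand of the dermis and dermal papilla, was close in both genotypes, with 9.17 and 8.50 FPKM in unperturbed samples, 10.5 and 14.5 after plucking, and 9.97 and 8.10 in wounds. Of 53 other genes of the pathway with a mean FPKM of at least 1 in all tables, Smad1 had the most similar set of 3 log2 ratios (-0.20, 0.45 and -0.31, against -0.11, 0.46 and -0.30 for Bmp4), at a Euclidean distance of 0.096. The next were Ltbp4 at 0.124 and Grem1 at 0.381. On chromosome 14 the annotation places Bmp4 from 46383520 to 46390669, overlapping Gm15217 and an antisense RNA on the other strand.

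Bmp6, which is made by suprabasal keratinocytes and marks the quiescent inner bulge, was a low gene. In unperturbed samples it was at 1.37 FPKM in WT and 2.18 in JunB cKO (log2 ratio 0.64), where 40.5% of loci of similar level had a ratio at least as high. In wounds it was at 1.99 and 1.96. After plucking it was at 0.777 in WT, which corresponds to 5.0 to 42.9 reads, and listed at 0 in JunB cKO. A listed 0 can be a failed estimate in these tables: Gapdh, which every cell uses, was listed at 0 in both genotypes of the unperturbed table, and after plucking 124 of 7918 loci with a mean FPKM of at least 10 were listed at 0 in WT and 65 in JunB cKO. No fold is therefore given for Bmp6.

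The antagonists were Fst and Nog. Fst is the gene of follistatin, which binds activin and in part BMPs. Among the members, Fst was the most abundant of the ligands and antagonists except in JunB cKO wounds, where Tgfb1 exceeded it. It was at 33.0 FPKM in WT and 29.8 in JunB cKO in unperturbed samples and at 16.8 and 17.0 in wounds. After plucking it was at 39.3 and 24.3, which is 1.62-fold lower in JunB cKO (log2 ratio -0.69) and under the 2-fold limit. Fst was 11.5 times Inhba in plucked WT skin and 51.9 times Inhba in plucked JunB cKO skin on the FPKM scale, since Inhba differed more than Fst. The second of these ratios is imprecise, since Inhba was at 0.468 FPKM in plucked JunB cKO skin, or about 8.0 to 37.2 reads. After plucking Inhba reached the minimum level only through its WT value of 3.41 FPKM. In wounds the ratio was 3.87 and 5.47. In unperturbed samples it was 57.0 and 21.9, but there Inhba was under the minimum level. At that level 62.8% of loci had a log2 ratio at least as high as that of Inhba, so these 2 ratios are not read as a difference.

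Nog, the gene of noggin, is a single-exon gene on chromosome 11 from 89300638 to 89302332, so that its FPKM values could be turned back into reads. In unperturbed samples the listed locus was longer than these positions, at 1922 bases in place of 1695. With that length about 107 reads in WT and 42 in JunB cKO (106.86 and 41.95 before rounding) gave 3.68 and 4.89 FPKM. The ratio of JunB cKO to WT was 1.33, with an exact 95% interval of 0.909 to 1.92 that covers counting error only. In wounds about 45 and 73 reads gave 0.694 and 1.24 FPKM, under the minimum level. The ratio was 1.77, under 2-fold, with an interval of 1.21 to 2.63 for counting error only. These counts are approximate, since each wound value merges 2 libraries. The interval leaves out the spread between libraries and is no test of the genotypes. After plucking Nog was listed at 0 in WT and at 1.87 FPKM in JunB cKO, from 36 reads. A single read of Nog would have been 0.0411 FPKM in the plucked WT library, an estimate from only 3 receptor loci. A listed 0 can be a failed estimate, so this does not show that Nog was absent in WT, and no fold is given. The mean was under the minimum level, and 12.9% of 3377 plucked loci of similar level had a ratio at least as high.

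Id1, an inhibitor of basic helix-loop-helix factors and a direct target of BMP signaling, was the most abundant of the 10 genes in every column. It was at 52.1 FPKM in WT and 38.7 in JunB cKO in unperturbed samples (log2 ratio -0.43), at 47.1 and 44.4 after plucking (-0.08 on the log2 scale) and at 36.2 and 34.6 in wounds (-0.06). Its genotypes therefore stayed within 1.35-fold in all tables. The 3 pathway genes with the most similar log2 ratios were the receptor genes Bmpr2, Tgfbr1 and Acvr1, at distances of 0.168, 0.169 and 0.171. For Tgfb1 no gene was as near: the closest were Inhbb at 1.09, Smad3 at 1.20 and Inha at 1.32.

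The other genes of the pathway were described from 7 lists with 84 genes by role. In unperturbed samples 53 of them reached the minimum, of which 2 were 2-fold higher and 0 lower, or 3.77% in all, where 10.9% of all loci differed. Their median log2 ratio was -0.20. The ligand genes Gdf7, from 0.0494 to 2.18 FPKM, and Gdf10, from 1.31 to 3.04, were the higher ones, and both are low genes. Without a minimum 30 were higher and 0 lower, but low genes of this table were shifted towards JunB cKO as a whole. Its odorant, vomeronasal and taste receptor genes had a median of 0 FPKM in WT and 0.548 in JunB cKO. The share of all loci without a minimum was not calculated. Among abundant genes, Id4, a relative of Id1, was at 14.8 in WT and 29.3 in JunB cKO, just under the limit, while Id3 was at 60.5 and 44.3. Sostdc1, a BMP and Wnt antagonist, was at 43.6 and 71.6. The lowest ratios above the minimum belonged to Cdkn2b, a cell cycle inhibitor induced by TGF-beta, at 16.9 and 10.1, and Bmp3, at 5.85 and 3.58. All 10 receptor genes above the minimum were on the lower side, as were 8349 of 13300 loci. Their median log2 ratio was -0.26, with none at 2-fold, where the median of all loci was -0.14. After plucking 11 of 11 receptor genes above the minimum lay on the lower side (median log2 ratio -0.39), beside 7703 of 15737 loci. In wounds 6 of 13 did.

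After plucking 53 of the 84 reached the minimum, of which 2 were higher and 8 lower in JunB cKO, or 18.9% in all, less than the 36.2% of all loci. The higher ones were Smad7 and Smad6, inhibitory Smads, which end signaling. Smad7 was at 1.67 FPKM in WT and 8.08 in JunB cKO (log2 ratio 2.21). Smad6 was listed at 0 in WT and at 4.69 in JunB cKO, and a listed 0 can be a failed estimate. The same limit holds for the lower call of the receptor gene Acvr2b, listed at 0 in JunB cKO. Smad3, which carries TGF-beta and activin signals, was lower, at 17.5 and 6.40 (log2 ratio -1.44). The BMP effectors Smad1 and Smad5 were at 25.3 and 34.7 and at 32.2 and 21.9, within 2-fold.

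Of the 7 genes of the TGF-beta target list above the minimum, 7 lay on the lower side in plucked JunB cKO skin. Their median log2 ratio was -0.78, and 2 of them passed the limit. Of all loci, 7703 of 15737 lay on the lower side and 17.1% were lower by 2-fold. Smad7, which was listed with the Smads and not with the targets, lay on the higher side (log2 ratio 2.21). In unperturbed samples 7 of 8 targets lay on the lower side, with a median of -0.32 and none at 2-fold, beside 8349 of 13300 loci on that side. Those past the limit after plucking were Pmepa1, a feedback inhibitor of TGF-beta signaling, at 13.8 FPKM in WT and 5.83 in JunB cKO, and Ctgf, which encodes a matrix protein, at 35.0 and 15.6. Thbs1, whose product thrombospondin can activate latent TGF-beta, was at 109 and 14.3 (log2 ratio -2.92). The other lower genes were the receptor genes Acvrl1 (5.08 and 0.892), which is used mainly in endothelium, and Acvr2b (3.12, and listed at 0 in JunB cKO), and the antagonists Chrdl1 (4.49 and 0.319) and Fstl1 (66.1 and 26.1), the last of which was named after its values were seen. In the same comparison fibroblast markers had a median log2 ratio of -1.10, endothelial markers of -0.41 and skeletal muscle markers of -2.98. Their part in these differences was not tested. The BMP targets Id2 (19.8 and 13.4), Id3 (11.1 and 6.27) and Id4 (74.5 and 107) stayed within 2-fold, as did Id1.

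In wounds 62 of the 84 reached the minimum, of which 4 were higher and 0 lower in JunB cKO, or 6.45%, with 13.3% for all loci. The higher genes were Eng, the TGF-beta co-receptor endoglin of endothelium, at 7.77 and 18.7 FPKM (log2 ratio 1.25), Acvr1c, a receptor gene of adipose tissue, at 3.92 and 10.2 (log2 ratio 1.36), Amhr2, the receptor gene for anti-Müllerian hormone, at 0.864 and 3.34, and the target gene Snai1, a repressor of epithelial genes, at 0.491 and 2.16. Endothelial markers were higher in 5 of 5 cases in the same comparison, from a sum of 134 FPKM in WT to 183 in JunB cKO, and adipocyte markers in 4 of 5, from 139.96 to 266. Their part was not tested. Unlike after plucking, Smad7 lay lower in JunB cKO wounds, at 15.8 and 9.77 (log2 ratio -0.69), and Smad6 was at 7.92 and 8.50. Msx2, a homeobox target of BMPs, had the lowest ratio in wounds among listed genes above the minimum, at 24.7 and 15.0, and the activin antagonist Fstl3 was at 5.88 and 11.5, just under the 2-fold limit. The TGF-beta targets had a median log2 ratio of 0.04, with Ctgf at 64.6 in WT and 55.8 in JunB cKO, Pmepa1 at 33.4 and 31.8 and Tgfbi at 101 and 92.1, while Tgfb1 itself was 2.81-fold higher.

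**Figure D4:**
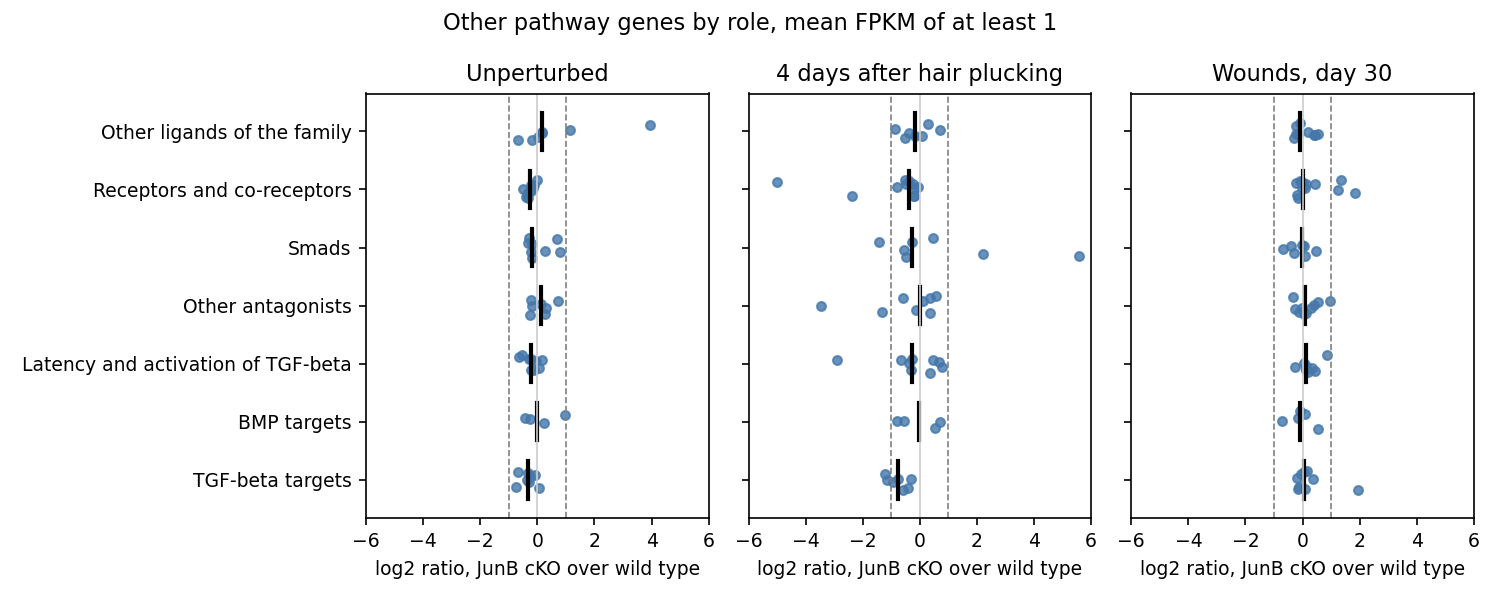
log2 ratio (JunB cKO over WT) of the other pathway genes with a mean FPKM of at least 1, by role, with 1 point per gene, the median of each role as a black bar and dashed lines at 2-fold. The genes of the TGF-beta target list, which leaves out Smad7, sit on the lower side after plucking (median -0.78) and around 0 in wounds (median 0.04).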

How the data were processed

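The members and gene lists were chosen with earlier results of these data known. Total RNA was depleted of rRNA and made into stranded libraries, and the authors trimmed the reads, mapped them to GRCm38 with TopHat or HISAT2, assembled transcripts with Cufflinks and deposited FPKM values calculated with Cuffdiff, 1 per genotype and locus in each of 3 tables (26457 loci for unperturbed samples, 47990 for hair plucking and 46726 for wounds). Whether reads were counted by strand is not given in the sources used here. The authors' fold changes, p-values and q-values were not used.

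Genotypes were taken from the names inside the tables. From the FPKM values, log2 ratios with a pseudocount of 0.1 were calculated, and genes were counted at 2-fold with a mean FPKM of at least 1. Limma, planned for wounds, was not run because the table does not separate the 2 libraries. The genes that could be named were all 10 members, at most the 5 highest and 5 lowest log2 ratios above the minimum of the pathway lists per comparison, genes of receptor, Smad and target lists needed to describe their list, and for Id1, Bmp4 and Tgfb1 the 3 nearest pathway genes. Markers were 7 lists of 5 genes. The value of 1 target gene is not reported here.

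The depth is not given in the tables. FPKM times the length less 199 bases of receptor genes with loci of 880 to 1000 bases fell on whole reads within 0.1 for 38 of 38 loci in unperturbed wild type and 16 of 20 in JunB cKO wounds, and 1 FPKM per such kilobase stood for 16.9 reads in wild type and 4.97 in JunB cKO for unperturbed samples, 16.3 and 12.8 after hair plucking, and 43.3 and 39.6 in wounds. Gene positions come from GENCODE release M21. Calculations were tested on simulated data and run in Python 3.11.15 with pandas 2.3.3, numpy 2.4.6, scipy 1.17.1 and matplotlib 3.10.9. Alternatives were pseudocounts, minimum levels, centring, a 1.5-fold limit, tested loci only and summed loci.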

Additional observations from a re-analysis of the deposited data

Results flagged for a closer look

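Tgfb1 was flagged because its genotypes differed 2-fold in opposite directions under the same contrast: the log2 ratio of JunB cKO over wild type was -1.07 after hair plucking and 1.48 in wounds. The difference between the conditions was not tested, since each table has 1 value per genotype.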

How the results depend on the processing

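With 1 value per genotype, no call has a replicate check. Without a minimum level, 1 member (Inhba, higher in JunB cKO) was counted in unperturbed samples in place of 0, and with a 1.5-fold limit also 1 (Bmp6, higher). With a minimum mean FPKM of 10 the plucked members counted were 0 in place of 4, as fewer genes were left, and Tgfb1 in wounds was counted under every alternative. Of the pathway genes in unperturbed samples, 2 were counted, and 1 with a pseudocount of 1, 30 without a minimum, 0 with a minimum of 10, 10 with a 1.5-fold limit, and 9 with a pseudocount of 1 and no minimum, an alternative chosen after seeing the data. For plucked skin 10 were counted, and 16 without a minimum, 4 with a minimum of 10 and 22 with a 1.5-fold limit. For wounds 4 were counted, and 10 without a minimum, 1 with a minimum of 10 and 8 with a 1.5-fold limit. The shares of all loci under these alternatives were not calculated, and low genes of the unperturbed table were shifted towards JunB cKO as a whole. Centring on the median of all loci, the use of tested loci only and summing all loci of a symbol left the counts of members as they were. All members were tested loci, so the use of tested loci only could not change these counts. Summing could change only Tgfb3 after plucking, the only member with more than 1 entry. No called member changed sign, but a pseudocount, a minimum level or a fold limit cannot change the sign of a ratio. These alternatives are therefore no check of direction. Fits without 1 replicate were not run, since the wound libraries are not separated. No paired analysis was possible because the wound table has 1 value per genotype.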

Other observations

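The sum of Bmp2, Bmp4 and Bmp6, formed after the values were seen, was 19.4 FPKM in WT and 17.0 in JunB cKO in unperturbed samples, 15.5 and 17.7 after plucking, and 19.9 and 15.4 in wounds. Bmp4 made up 67.8% of this sum in plucked WT skin and 82.0% in plucked JunB cKO skin, where Bmp6 was listed at 0. In wounds its share was 50.2% and 52.4%.

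The 5 melanocyte markers summed to 226 FPKM in WT and 117 in JunB cKO wounds, with 5 of 5 lower in JunB cKO. After plucking they summed to 28.5 and 51.8, with 4 of 5 higher, and in unperturbed samples to 16.7 and 16.5.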
